A study of Homo sapiens with 15 samples.

Results

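A group of 9 human miRNA entries whose loci or sequences overlap other classes of short RNA was examined: hsa-miR-1246 and hsa-miR-1290, which resemble U2 small nuclear RNA (snRNA), hsa-miR-1260a, hsa-miR-1260b and hsa-miR-4454, which resemble transfer RNA (tRNA), and hsa-miR-663a, hsa-miR-663b, hsa-miR-3648 and hsa-miR-3687, which lie in or resemble ribosomal RNA (rRNA) regions. The species prefix is left out below. They were chosen by name from 2424 miRNAs listed in either of the count tables. All 9 had a row among the 2418 miRNAs of the knockdown table and 8 among the 2189 miRNAs of the RNA immunoprecipitation (RIP-seq) table, where miR-1260a was not analysed here.

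A canonical miRNA is cut out of a hairpin precursor by Drosha and Dicer and guides Argonaute to target RNAs through its seed, bases 2 to 8. U2 snRNA is a spliceosome component that pairs with the intron branch site, tRNAs carry amino acids and end in CCA, which is added after transcription, and rRNAs are cut out of a long precursor whose spacers are discarded. Pieces of all these RNAs enter small RNA libraries, and a short piece that matches a miRBase entry is counted as that miRNA. N6-methyladenosine (m6A) is a methyl mark on adenosine that occurs in many RNA classes, and FTO is a demethylase that acts on it.

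Small RNA was sequenced from FTO1C1, FTO2D4 and FTO3C3, which are uninduced derivatives of the human embryonic kidney line HEK293, made with the Flp-In T-Rex system. In the knockdown, each clone was transfected with 10 nM of scrambled siRNA or FTO siRNA and harvested after 48 h. For RIP-seq, cells of the same clones gave an input, a precipitate with an antibody to m6A and a precipitate with IgG. The IgG precipitate measures binding to antibody and beads without m6A recognition. The labels of the RIP-seq libraries name no siRNA. There were thus 5 groups of 3 libraries, 1 per clone, and no clone had a repeat library of its own. The tests draw on the spread between clones of one line, which they share in part between miRNAs. FTO mRNA is not among these counts. The extent of the knockdown was measured in the study by qRT-PCR and Western blot, which were not analysed here.

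The mature sequences show what the entries share. They are given 5′ to 3′ from RefSeq (GRCh38.p14), with the seed in capitals. A sequence was found for 8 of the 9 entries, all but miR-3687.
miR-1246: aAUGGAUUuuuggagcagg
miR-1290: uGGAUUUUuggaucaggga
miR-1260a: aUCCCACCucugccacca
miR-1260b: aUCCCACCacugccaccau
miR-4454: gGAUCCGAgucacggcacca
miR-663a: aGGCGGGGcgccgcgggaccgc
miR-663b: gGUGGCCCggccgugccugagg
miR-3648: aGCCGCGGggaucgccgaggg

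On GRCh38.p14, miR-1246 lies at chr2:176601024-176601042 and miR-4454 at chr4:163093607-163093626, both on the minus strand and outside other annotated genes. Several entries lie within the span of another gene. miR-1290 lies at chr1:18897078-18897096 (minus strand) within ALDH4A1, miR-1260a at chr14:77266231-77266248 (plus strand) within NGB, and miR-1260b at chr11:96341447-96341465 (plus strand) within MAML2. miR-663a lies at chr20:26208243-26208264 (minus strand) within its host gene MIR663AHG, and miR-663b at chr2:132256970-132256991 (minus strand) within ANKRD30BL and LOC107985804. For miR-3648, RefSeq has 2 gene copies, and the one shown lies at chr21:8987026-8987046 (plus strand). The annotation used here gives gene spans, so whether these positions are exonic or intronic was not analysed.

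The U2-like entries share the 12 bases capitalised here, from base 3 of miR-1246 and base 1 of miR-1290, so their seeds are offset and differ.
miR-1246: aaUGGAUUUUUGGAgcagg
miR-1290: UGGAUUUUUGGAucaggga

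The pair miR-1260a and miR-1260b is the only one of the 8 with a common seed. Positions counted from the 5′ end, the substitution from miR-1260a to miR-1260b is U9A, and miR-1260b has an extra base at the 3′ end. Capitals mark both differences.
miR-1260a: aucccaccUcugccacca
miR-1260b: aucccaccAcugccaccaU

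The 8 identical bases before the substitution and the 9 after it add up to 17. That is the minimum that the authors required of a read, built from exact matches of at least 7 bases, so a full-length read of either entry met the stated criterion for the other. Where a read matched more than one miRNA, the authors kept the entry with more bases matched. Under that rule a full-length read matched its own entry by 18 bases (miR-1260a) or 19 bases (miR-1260b) and the other by 17, so it went to its own.

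The 3′ ends of miR-1260a and miR-4454 are CCA, as in a mature tRNA, in 2 of the 8 sequences. Of the 2127 listed miRNAs with a RefSeq sequence, 42 (1.97%) ended so.
miR-1260a: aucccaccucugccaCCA
miR-4454: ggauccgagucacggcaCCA

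Base composition set the rRNA-like entries with a sequence apart, which leaves out miR-3687. The G+C content was 90.9% in miR-663a, 81.8% in miR-663b and 81.0% in miR-3648, against a median of 52.2% over all 2127 sequences, 0.47% of which were as rich as miR-663a. miR-1246 and miR-1290 had 42.1%, and the tRNA-like entries 57.9% to 65.0%. m6A is often placed on the A of GAC or AAC. On the sequence as read, 5′ to 3′, either trinucleotide was present in 1 of the 8 entries, miR-663a (GAC), and in 796 (37.4%) of the 2127 sequences. These are matches of letters, not mapped methylation sites.

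Levels are given as reads per 1000000 miRNA reads of the library (RPM). Total miRNA reads ranged from 1991317 to 3876806 in the knockdown libraries, from 1408702 to 1500357 in the inputs, from 186446 to 786688 in the IgG precipitates and from 569501 to 4973238 in the m6A precipitates. The FTO3C3 IgG library was the shallowest, and counts there rest on few reads. miR-6080 alone took 15.5% to 28.4% of the input, 58.0% to 71.6% of the IgG and 41.3% to 47.8% of the m6A reads, and its count of 563404 was identical in the IgG and m6A libraries of FTO2D4, the only count over 500 shared by 2 RIP-seq libraries on the same row. Every RPM of the precipitates depends on that entry, so totals without miR-6080 were tried as an alternative. HEK293-type miRNAs, such as miR-10a-5p and the miR-17-92 cluster, were listed for 7 of 7 markers. Their summed level was 371500 to 469100 RPM with scrambled siRNA, 395800 to 438700 RPM with FTO siRNA, 148200 to 236500 RPM in the inputs and 89820 to 116200 RPM in the m6A precipitates, but 1013 to 2435 RPM in the IgG precipitates. Much of each sum was miR-10a-5p, with a mean of 274100, 268100, 125500, 78620 and 1238 RPM in these groups. The lowest marker of both precipitates, miR-20a-5p of the miR-17-92 cluster, averaged 14.9 RPM in m6A and 0.847 RPM in IgG. Of 14 markers of blood, liver, muscle and other cells, 12 were in the knockdown table and 11 in that of RIP-seq, none of these at 0 in all 3 libraries of a group, and their sum was 283.7 to 496.3 RPM in the knockdown libraries, 665.9 to 1159 RPM in the inputs, 259 to 343.3 RPM in the IgG and 1224 to 2424 RPM in the m6A precipitates.

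The 9 entries together took 0.517% to 1.04% of the miRNA reads with scrambled siRNA and 0.787% to 0.828% with FTO siRNA. Most of this was miR-4454. Of 8 entries, the share was 0.238% to 0.295% in the inputs, 0.199% to 0.248% in the IgG and 0.359% to 0.732% in the m6A precipitates. The widest of the exact 95% binomial intervals, that of the FTO3C3 IgG library, ran from 0.226% to 0.271%, and such intervals cover counting error only.

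**Figure D1:**
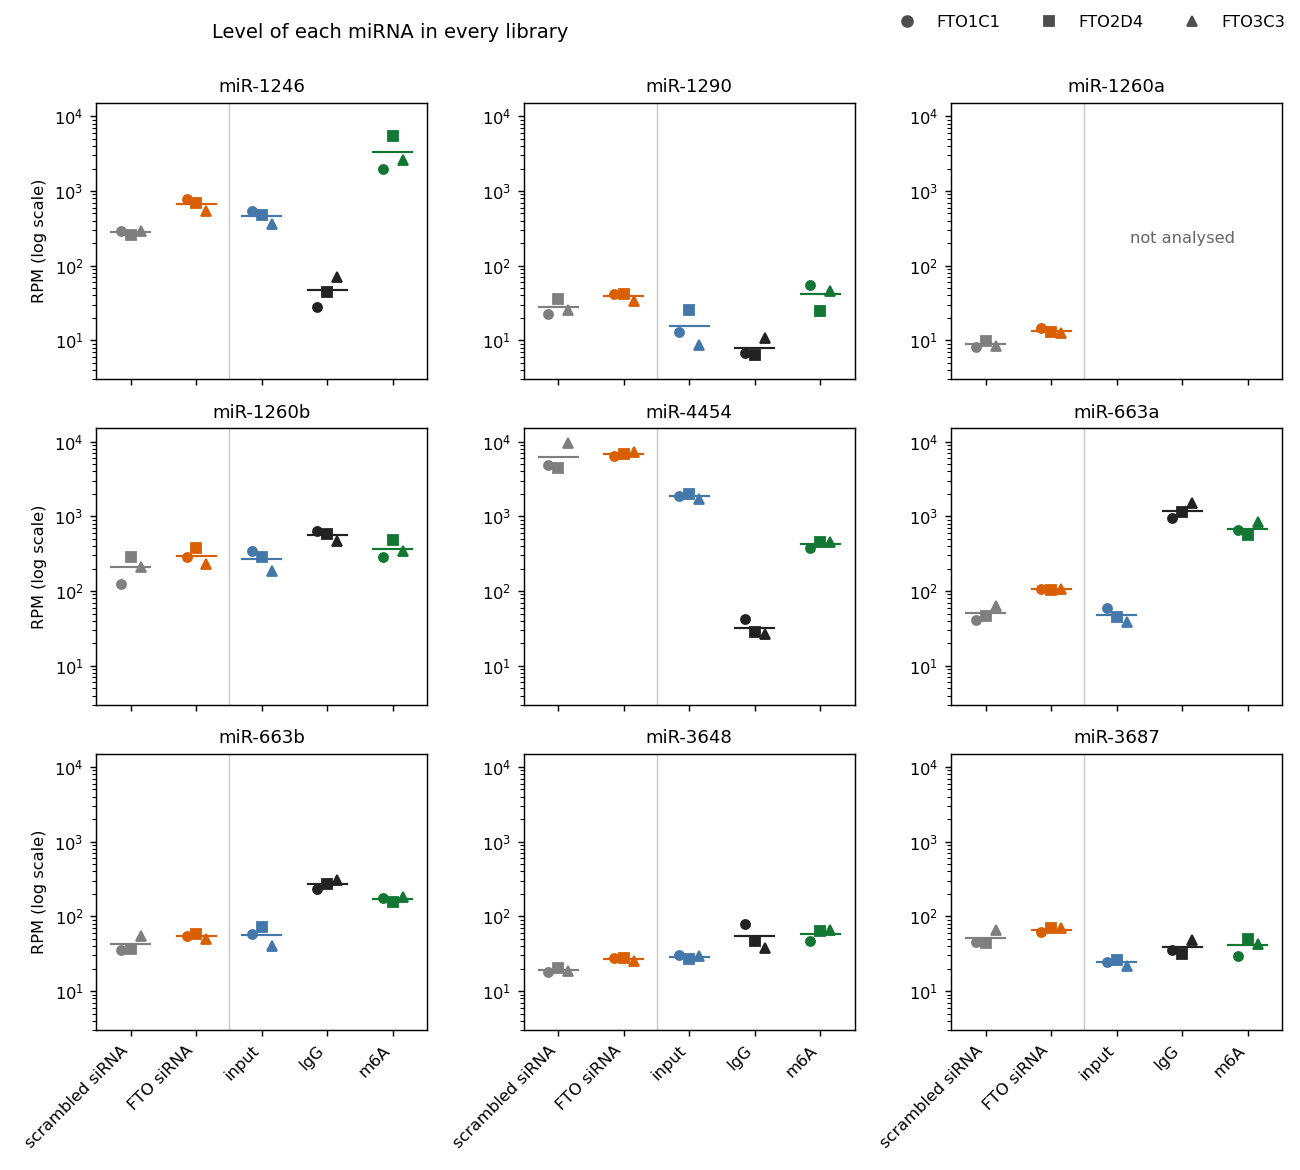
Level of each entry in every library, in RPM on a log axis, for the 5 groups. Each point is 1 library, its shape marks the clone, and the line is the mean of 3. miR-1246 and miR-4454 are lowest in IgG, whereas miR-663a and miR-663b are highest there. miR-1260a is drawn for the knockdown only.

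The order of the entries changed with the group. miR-4454 was the most abundant with scrambled siRNA (6282 ± 2894 RPM, SD, n = 3), with FTO siRNA (6849 ± 333 RPM) and in the inputs (1845 ± 143 RPM), and its lowest library in each lay above every library of the next entry, miR-1246. In the IgG precipitates miR-663a came first with 1197 ± 283 RPM, and miR-4454 was the 7th of 8 with 32.2 ± 8.35 RPM. In the m6A precipitates miR-1246 came first with 3370 ± 1897 RPM, ahead of miR-663a with 685 ± 141 RPM. miR-1260a was the least abundant entry of the knockdown libraries, with 8.84 ± 0.792 RPM in the scrambled siRNA group. With scrambled siRNA, neighbours overlapped among miR-3687, miR-663a, miR-663b and miR-1290, and miR-1246 overlapped miR-1260b. In the inputs, miR-663b overlapped miR-663a, and miR-3687 overlapped miR-1290. In IgG, neighbours overlapped among miR-3648, miR-1246, miR-3687 and miR-4454. In m6A, miR-4454 overlapped miR-1260b, and neighbours overlapped among miR-3648, miR-1290 and miR-3687. With FTO siRNA, neighbours did not overlap. These RPM are not per length, although the mature sequences differ little in length (18 to 22 bases).

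The first comparison asked whether the entries change when FTO is depleted. miR-1246, the U2-like entry, and miR-663a, a GC-rich rRNA-like entry, were higher with FTO siRNA in all 3 clones, about 2-fold. The fitted difference of the other 7 was also positive on the scale of total miRNA reads, though that of miR-4454 changed sign with other scaling, and none of them passed the test. Thus 2 of 9 were called higher and 0 lower (edgeR's quasi-likelihood test, Benjamini-Hochberg adjusted), where 5.48% of the 2374 miRNAs tested were called, 4.97% higher and 0.505% lower. The median log2 fold change was 0.50 for the 9 entries and 0.29 for all miRNAs, and 8 of the 9 lay above the latter.

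In the order FTO1C1, FTO2D4 and FTO3C3, the scrambled libraries held 1060, 640 and 578 reads of miR-1246 and the FTO siRNA libraries 2723, 2426 and 2076. In the same order, these were 291, 260 and 290 RPM against 782, 701 and 536 RPM. The lowest FTO siRNA library lay above the highest scrambled library. The ratio within a clone was 2.68, 2.70 and 1.84, and the log2 fold change was 1.25 with an SE of 0.17 (edgeR, adjusted p = 0.00507). It ranked 14th of 2374 from the largest increase. As these are bulk libraries, more cells that hold an RNA and more of it per cell cannot be told apart.

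The less abundant U2-like entry, miR-1290, had 83, 88 and 51 scrambled reads against 145, 146 and 131 after FTO depletion. The groups overlapped in RPM, at 22.8 to 35.7 against 33.8 to 42.2. The log2 fold change of 0.50 had a 95% interval from 0.05 to 0.96 and did not pass the test (edgeR, adjusted p = 0.153).

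For miR-663a the scrambled libraries held 147, 114 and 127 reads and the FTO siRNA libraries 376, 353 and 412. That is 40.4, 46.3 and 63.8 RPM against 108, 102 and 106 RPM, without overlap. FTO3C3 had the highest scrambled and so the smallest ratio (1.67, against 2.67 in FTO1C1 and 2.20 in FTO2D4). The log2 fold change was 1.10 with an SE of 0.20 (edgeR, adjusted p = 0.0175), the 28th largest increase.

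Its namesake miR-663b, which has a different seed and sequence, went from 128, 90 and 110 scrambled reads to 188, 201 and 194. In FTO3C3 the ratio of RPM was 0.906, against 1.53 and 1.59 in the other clones. The log2 fold change of 0.38 lay close to the median of all miRNAs (edgeR, adjusted p = 0.297).

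Both calls were lost without FTO1C1, in a fit that called none of the 2363 miRNAs tested (327 had an unadjusted p under 0.05). There miR-1246 kept a log2 fold change of 1.16 with an SE of 0.21 (edgeR, adjusted p = 0.204). That of miR-663a was 0.94 with an SE of 0.24 (adjusted p = 0.248). Without FTO2D4 they were 1.16 with an SE of 0.24 (edgeR, adjusted p = 0.000158) and 1.08 with an SE of 0.29 (adjusted p = 0.00927). For each entry the SE was smaller without FTO1C1 than without FTO2D4, yet the p value was larger. Unadjusted, it was 0.00216 against 1.45e-06 for miR-1246 and 0.0108 against 0.00026 for miR-663a (edgeR). Without FTO2D4 the test shared the spread between miRNAs almost completely, so p values of these fits cannot show which clone carries a call. The loss of calls without FTO1C1 was not particular to these entries, and its cause was not tested. Over all 9 alternatives the log2 fold change of miR-1246 ran from 0.95 to 1.43 with adjusted p between 6.12e-05 and 0.204, and that of miR-663a from 0.80 to 1.28 with adjusted p between 0.00794 and 0.248.

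The tRNA-like entries did not pass the test. miR-1260a had 30, 24 and 17 scrambled reads against 51, 45 and 48, at 8.25, 9.74 and 8.54 RPM against 14.7, 13.0 and 12.4 RPM. Its groups did not overlap, yet its log2 fold change of 0.60 rested on few reads, with a 95% interval from 0.08 to 1.12 (edgeR, adjusted p = 0.141). miR-1260b had 457, 702 and 420 reads against 1002, 1286 and 901, and its ratio was 2.29 in FTO1C1 but 1.30 and 1.10 in FTO2D4 and FTO3C3. Its log2 fold change was 0.57 (edgeR, adjusted p = 0.124), and only without FTO3C3 was it called, at 0.79 (adjusted p = 0.0493).

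miR-4454 had by far the most reads, 17442, 10925 and 19151 in the scrambled libraries against 22607, 23874 and 27746. The scrambled library of FTO3C3 stood apart at 9617 RPM, against 4794 and 4434 RPM in the others and 6496 to 7157 RPM with FTO siRNA. The ratio was thus 1.35 and 1.56 in FTO1C1 and FTO2D4 but 0.744 in FTO3C3, and the log2 fold change was 0.22 with a 95% interval from -0.21 to 0.65 (edgeR, adjusted p = 0.488). Its sign turned with other scaling, to -0.0739 with TMM factors (edgeR) and -0.0777 with DESeq2, both relative to a median of all miRNAs near 0. Without FTO3C3 it was 0.54 (edgeR, adjusted p = 0.0615). In the same FTO3C3 scrambled library miR-7641, an entry resembling small rRNA, was at 503 RPM (1002 reads), against 74.5 and 39.8 RPM in the other scrambled and 40.5 to 52.1 RPM in the FTO siRNA libraries. Of the entries, miR-663a, miR-663b and miR-3687 were also highest of their scrambled group there. What part this library has in the differences beyond the values without it was not tested.

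Of the remaining rRNA-like entries, miR-3648 had 66, 51 and 37 reads against 96, 95 and 98, which gave 18.1 to 20.7 RPM and 25.3 to 27.6 RPM, without overlap. miR-3687 had 165, 110 and 130 reads against 212, 242 and 268, and its groups overlapped. Their log2 fold changes of 0.49 and 0.38 did not pass edgeR's test (adjusted p = 0.141 and 0.246). In all, 4 of the 9 entries (miR-1246, miR-1260a, miR-663a and miR-3648) had every FTO siRNA library above every scrambled library, where 26.7% of all miRNAs tested did. None had every library below, where 1.94% did.

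**Figure D2:**
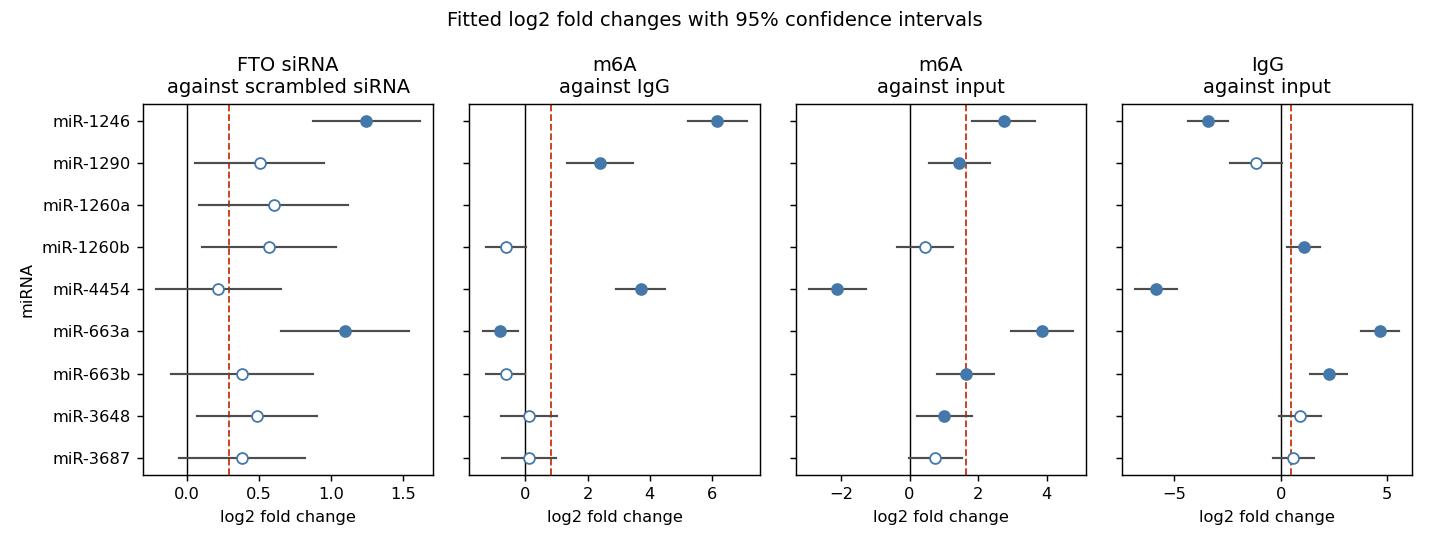
Fitted log2 fold changes (x axis, a separate scale in each panel) of the entries in the 4 comparisons, from edgeR with 95% confidence intervals as bars. Filled points had an adjusted p under 0.05, the dashed line is the median of all miRNAs tested and the solid line is 0. miR-1246 lies at 6.17 for m6A against IgG, and miR-663a and miR-4454 lie at opposite ends of IgG against input.

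The RIP-seq comparisons asked which entries the m6A antibody recovered beyond IgG. The 3 contrasts share libraries, since the m6A and IgG precipitates are each set against the same inputs, and their values are given side by side rather than as independent evidence. A precipitate shows what was recovered relative to other miRNAs, so fold changes are also given relative to the median of all miRNAs, which was 0.83 for m6A against IgG, 1.65 for m6A against input and 0.49 for IgG against input. With TMM factors these medians were 0.06, 0.10 and -0.02.

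For m6A against IgG, miR-1246, miR-4454 and miR-1290 were higher in the m6A precipitates, and miR-663a was lower. Hence 3 of 8 were called higher and 1 lower (edgeR, Benjamini-Hochberg), where 39.8% of the 2054 miRNAs tested were called, 38.6% higher and 1.27% lower. The median of the 8 entries was 0.12, under the 0.83 of all miRNAs, and 3 of the 8 lay above the latter. All m6A libraries lay above all IgG libraries for 3 entries (45.8% of all miRNAs) and below them for 2, miR-663a and miR-663b (5.84%).

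miR-1246 had 21, 35 and 13 reads in IgG and 1119, 7533 and 13024 reads in m6A, for FTO1C1, FTO2D4 and FTO3C3. In relative terms these were 28.3, 44.5 and 69.7 RPM against 1965, 5528 and 2619 RPM. The within-clone ratio was 69.4, 124 and 37.6, with every m6A library far above every IgG library. The log2 fold change of 6.17 (SE 0.42) was the 25th largest of 2054 (edgeR, adjusted p = 9.02e-06) and stayed between 5.37 and 6.55 in all 9 alternatives, with adjusted p of at most 0.00526.

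Against input, where miR-1246 had 765, 700 and 550 reads (543, 480 and 367 RPM), the m6A precipitates held 3.62, 11.5 and 7.14 times as much and the IgG precipitates 0.0522, 0.0928 and 0.190 times as much. The log2 fold changes were 2.74 and -3.40 (edgeR, adjusted p = 4.50e-06 and 7.65e-12). miR-1246 was therefore higher in m6A and lower in IgG than before precipitation. Relative to the median of all miRNAs these were 1.09 and -3.89, and all 9 alternatives called each of them in the same direction, with adjusted p of at most 0.0250 and 0.000207.

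miR-1290 had only 5, 5 and 2 reads in IgG and 31, 34 and 225 in m6A. The ratios of 8.07, 3.93 and 4.22 had wide 95% counting intervals, from 3.11 to 26.6, from 1.53 to 12.9 and from 1.15 to 35.0. Its log2 fold change was 2.40 with an SE of 0.47 (edgeR, adjusted p = 0.00367), and DESeq2 gave 1.60 (adjusted p = 0.0701). Against its 18, 37 and 13 input reads the m6A ratio was 4.26 and 5.22 in FTO1C1 and FTO3C3 but 0.984 in FTO2D4. The log2 fold change against input was 1.44 (edgeR, adjusted p = 0.00390), below the median of all miRNAs, and became -0.11 with TMM factors and -0.10 with DESeq2. It was 0.95 without FTO3C3 (edgeR, adjusted p = 0.0965). For IgG against input it was -1.15 (edgeR, adjusted p = 0.101). That value depended on the scaling: it was -1.60 and called with TMM factors (edgeR, adjusted p = 0.01245). DESeq2 gave -1.60 (adjusted p = 0.0628), and totals without miR-6080 gave -0.0017 (edgeR, adjusted p = 0.998).

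miR-4454, the tRNA-like entry with a CCA end, had 31, 22 and 5 reads in IgG and 217, 614 and 2272 in m6A, or 41.8, 27.97 and 26.8 RPM against 381, 451 and 457 RPM. The ratio was 9.11, 16.1 and 17.04, and the log2 fold change 3.71 with an SE of 0.35 (edgeR, adjusted p = 5.83e-05), between 2.92 and 4.04 in the alternatives. Unlike miR-1246, it was lower in m6A than in the inputs, which held 2649, 2870 and 2531 reads (1880, 1966 and 1687 RPM). The m6A precipitates kept 0.203, 0.229 and 0.271 of the input level and the IgG precipitates 0.0222, 0.0142 and 0.0159.

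The corresponding log2 fold changes of miR-4454 were -2.10 for m6A against input and -5.84 for IgG against input (edgeR, adjusted p = 3.88e-05 and 2.51e-29). All 9 alternatives called both lower. Higher in m6A than in IgG and lower in both than in the input, miR-4454 was recovered less than the median miRNA by either, with values of -3.75 and -6.33 relative to that median.

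The other tRNA-like entry of this table, miR-1260b, had 484, 415 and 282 reads in the inputs, 467, 459 and 88 in IgG and 163, 653 and 1684 in m6A. Its mean level was 272 ± 78.5, 562 ± 81.1 and 368 ± 99.8 RPM in these groups, and the m6A libraries overlapped both others. IgG was above input in every clone (log2 fold change 1.08, edgeR, adjusted p = 0.0152), a call lost with TMM factors (0.52), with DESeq2 (0.47) and without FTO1C1 (1.18, adjusted p = 0.114) or FTO2D4 (1.09, adjusted p = 0.0580). m6A against IgG gave -0.63 (edgeR, adjusted p = 0.109), and -1.38 with TMM factors, -1.41 with DESeq2 and -1.31 with totals without miR-6080 (adjusted p = 0.00610, 0.00119 and 0.0112). m6A against input gave 0.45 (edgeR, adjusted p = 0.297), which turned to -1.09 with TMM factors and -1.12 with DESeq2.

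miR-663a had 83, 65 and 57 reads in the inputs, 698, 904 and 280 in IgG and 370, 771 and 4178 in m6A. In RPM, the inputs were at 58.9, 44.5 and 38.0, IgG at 941, 1149 and 1502 and m6A at 650, 566 and 840. IgG was the highest group in every clone, and none of the 3 groups overlapped another. The ratio of IgG to input was 15.98, 25.8 and 39.5, with a log2 fold change of 4.65 (SE 0.46), the 37th largest of 1941 (edgeR, adjusted p = 3.96e-22). For m6A against input it was 3.86 (SE 0.44, adjusted p = 1.92e-08). Both were called in all 9 alternatives, the former between 4.05 and 5.79 and the latter between 2.29 and 4.32.

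Set against IgG, m6A held 0.690, 0.492 and 0.559 of the level of miR-663a in the 3 clones. The log2 fold change was -0.80 (SE 0.25; edgeR, adjusted p = 0.0331), which is -1.63 relative to the median and 1993rd of 2054. Leaving out any one clone ended this call: -0.93 without FTO1C1 (adjusted p = 0.0554), -0.69 without FTO2D4 (adjusted p = 0.182) and -0.78 without FTO3C3 (adjusted p = 0.102). With all clones and other scaling the difference was larger and called, at -1.54 with TMM factors, -1.58 with DESeq2 and -1.47 with totals without miR-6080 (adjusted p = 0.0029, 0.000206 and 0.00867).

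miR-663b followed a similar order with smaller differences. It had 82, 106 and 60 reads in the inputs, 171, 212 and 58 in IgG and 102, 215 and 908 in m6A, with means of 56.9 ± 16.4, 270 ± 40.2 and 173 ± 13.4 RPM and no overlap between groups. IgG against input gave 2.26 (edgeR, adjusted p = 1.96e-06), called in all 9 alternatives. m6A against input gave 1.64 (adjusted p = 0.00069), level with the median of all miRNAs, and 0.10 with TMM factors and 0.07 with DESeq2, neither of them called. m6A against IgG gave -0.64 (adjusted p = 0.106), and -1.38 with TMM factors, -1.42 with DESeq2 and -1.31 with totals without miR-6080, which were called (adjusted p = 0.00602, 0.00173 and 0.0134).

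The last entries were low throughout. miR-3648 had 43, 39 and 44 reads in the inputs, 59, 37 and 7 in IgG and 27, 86 and 323 in m6A. miR-3687 had 35, 38 and 33, 26, 25 and 9, and 17, 69 and 210 reads in the same groups. For m6A against IgG their log2 fold changes were 0.11 and 0.12, with 95% intervals that held 0 (edgeR, adjusted p = 0.849 and 0.828), and both turned negative with TMM factors (-0.65 and -0.63). m6A against input gave 1.02 for miR-3648 (edgeR, adjusted p = 0.0207), which turned to -0.53 with TMM factors and -0.56 with DESeq2 and was 0.91 without FTO2D4 (adjusted p = 0.111), and 0.75 for miR-3687 (adjusted p = 0.0703), which turned to -0.80 and -0.83. For IgG against input they were 0.90 and 0.60 (adjusted p = 0.109 and 0.310). With totals without miR-6080 the latter became 2.05 and 1.74 and were called (adjusted p = 2.51e-05 and 0.000356).

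In all, m6A against input called 5 of 8 entries higher and 1 lower, where 77.3% of 2174 miRNAs were called, 66.8% higher and 10.5% lower. The libraries did not overlap for 5 entries that were higher (68.2% of all miRNAs) and 1 that was lower (11.2%). IgG against input called 3 of 8 higher and 2 lower, where 58.6% of 1941 miRNAs were called, 36.8% higher and 21.8% lower. There the libraries did not overlap for 5 higher entries (40.9%) and 2 lower entries (24.4%). The split of all calls depended on the scaling. With TMM factors, edgeR called 575 higher and 614 lower for m6A against input (1452 and 229 with total miRNA reads), 453 and 302 for m6A against IgG (792 and 26), 559 and 586 for IgG against input (714 and 423), and 21 and 34 in the knockdown (118 and 12). The opposite directions of miR-1246 in the precipitates and of miR-663a and miR-4454 in IgG kept their calls under both scalings.

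**Figure D3:**
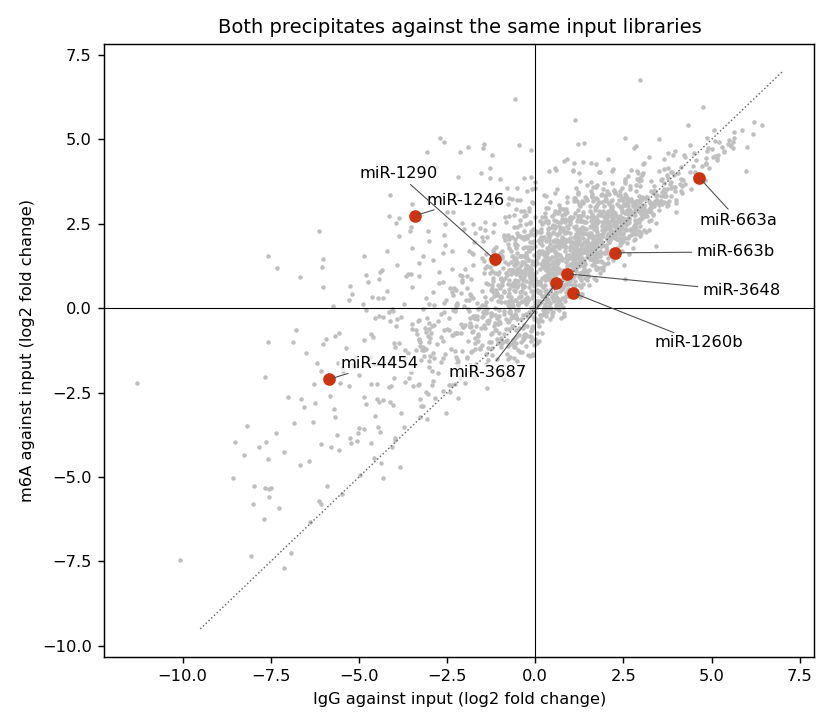
Log2 fold change of IgG against input (x axis) and of m6A against input (y axis) from edgeR, for all miRNAs tested in both (grey) and the 8 entries (red), with the dotted line where the values are equal. The same input libraries enter both axes. miR-1246 lies at -3.40 and 2.74, miR-4454 at -5.84 and -2.10 and miR-663a at 4.65 and 3.86, just under the line of equal values.

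Ratios between related entries in the same library do not depend on the library total, and with 3 pairs an exact paired permutation test cannot go below p = 0.25 (two-sided), so they are given without a test. miR-1246 exceeded miR-1290 by 42.5, 18.9 and 42.3 times in the inputs, by 4.2, 7 and 6.5 times in IgG and by 36.1, 222 and 57.9 times in m6A. The FTO2D4 m6A library stood apart, with 7533 reads of one and 34 of the other. In the knockdown table the scrambled libraries gave 12.8, 7.27 and 11.3, and all FTO siRNA libraries were above them at 18.8, 16.6 and 15.8.

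The ratio of miR-663a to miR-663b was 1.01, 0.613 and 0.95 in the inputs. In IgG the ratio was 4.08, 4.26 and 4.83 and in m6A 3.63, 3.59 and 4.6, so both precipitates held relatively more of the former and overlapped each other. It was 1.15, 1.27 and 1.15 in the scrambled libraries and higher in each clone after FTO depletion, at 2, 1.76 and 2.12.

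Reads of miR-3648 were 0.4, 0.464 and 0.285 times those of miR-3687 in the scrambled libraries. After FTO depletion they were 0.453, 0.393 and 0.366 times. In the RIP-seq inputs the ratio was 1.23, 1.03 and 1.33, a difference between separately deposited tables that was not tested. miR-1260b exceeded miR-1260a by 15.2, 29.2 and 24.7 times in the scrambled libraries. The FTO siRNA libraries gave 19.6, 28.6 and 18.8, which overlapped.

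**Figure D4:**
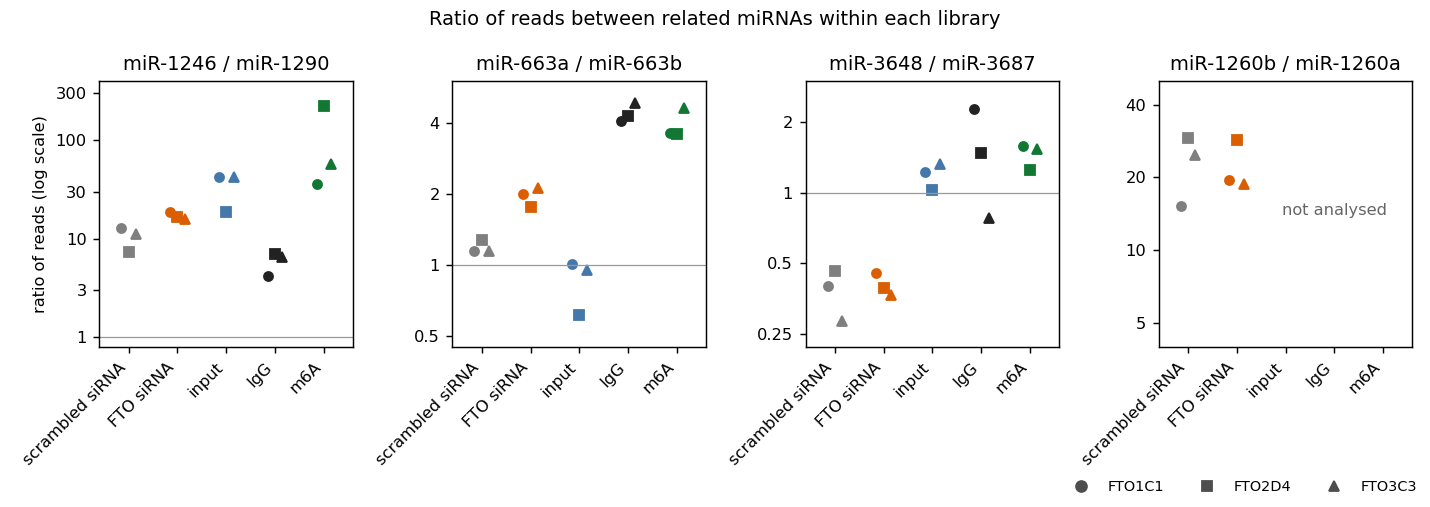
Ratio of reads between related entries in each library, on log axes that differ by panel, for the 5 groups. Each point is 1 library and its shape marks the clone. The ratio of miR-663a to miR-663b lies at 0.613 to 1.01 in the inputs and at 3.59 to 4.83 in both precipitates.

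Over all 15 libraries, the entries did not share one profile. For Pearson's r of log2(RPM + 1), the mean was taken off separately within the knockdown and the RIP-seq libraries, which removes differences between these sets. It was 0.97 between miR-663a and miR-663b, 0.835 between miR-1246 and miR-1290 and -0.817 between miR-4454 and miR-663a. Among the 1844 miRNAs tested throughout, those with the profile most like each entry were miR-485-5p (r = 0.984) and miR-6730-3p (0.981) for miR-1246, and miR-203b-3p (0.917) and miR-4750-5p (0.916) for miR-1290. They were miR-26a-5p (0.983) and miR-370-3p (0.982) for miR-4454 and miR-563 (0.864) and miR-6507-3p (0.850) for miR-1260b. For miR-663a they were miR-1181 (0.987) and miR-4717-5p (0.986), for miR-663b miR-4532 (0.988) and miR-3148 (0.976), for miR-3648 miR-1250-5p (0.912) and miR-6722-3p (0.908), and for miR-3687 miR-939-5p (0.918) and miR-934 (0.914). The libraries fall into 5 groups and share totals, so these values describe group differences and carry no p.

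Other miRBase entries that overlap structural RNA, namely tRNA-like, rRNA-like and small nucleolar RNA entries, gave a comparison. Of 15 named, 14 were listed in either table. In the knockdown 3 of 14 were called higher and 0 lower. Their median log2 fold change was 0.43, with values from -1.29 for miR-7641, which had the high FTO3C3 scrambled library, to 1.02 for miR-664b-3p (edgeR, adjusted p = 0.116). For m6A against IgG 5 of 12 were called higher and 0 lower, with a median of 0.88, from -0.77 for miR-3651 to 4.50 for miR-3607-5p. For m6A against input 9 of 12 were called higher and 1 lower (median 1.65, from -1.04 for miR-5100 to 3.17 for miR-3653). For IgG against input 3 of 11 were higher and 4 lower (median 0.36, from -3.29 for miR-3607-5p to 2.45 for miR-3651). Some of these extremes rest on few reads. miR-3607-5p had 5, 2 and 0 reads in IgG, and miR-664b-3p had 8, 11 and 4 scrambled reads against 18, 21 and 25. The medians of all miRNAs in these comparisons were 0.29, 0.83, 1.65 and 0.49. Of all miRNAs tested, 4.97% were called higher and 0.505% lower in the knockdown, and 38.6% and 1.27% for m6A against IgG. The shares were 66.8% and 10.5% for m6A against input, and 36.8% and 21.8% for IgG against input.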

How the data were processed

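Libraries of small RNA from 3 clones and 5 groups were compared, grouped by their labels. For the knockdown and the RIP-seq, separate tables of raw counts per mature miRNA were deposited by the authors. Per the study's methods, adapters were removed with cutadapt at an overlap of 4 bp and an error of 20%, and trimmed reads from 16 to 28 bp long were compared with miRBase release 20, not to a genome or to snRNA, tRNA or rRNA, so the RNA a read came from cannot be told apart. RPM of total miRNA reads were computed here, and each pair of groups was tested with edgeR's quasi-likelihood test (filterByExpr with a minimum count of 10, total miRNA reads as library sizes, the clone as a block, Benjamini-Hochberg adjustment over all miRNAs tested, threshold 0.05). Confidence intervals are at 95%. The test draws the spread of each miRNA toward one shared by all miRNAs, and for IgG against input this sharing was close to complete. It was also close to complete in some alternatives. These included the knockdown without FTO2D4, both m6A contrasts without FTO1C1, and m6A against input with totals without miR-6080. The adjusted p values of such fits, like 2.51e-29 for miR-4454 in IgG against input, therefore do not measure the spread of an entry alone over the clones.

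Libraries of one clone come from the same cell line and so were paired. The correlation of deviations from group means, between paired libraries, was 0.189, 0.121 and 0.160 in the knockdown, 0.0117, 0.0313 and 0.0369 for m6A and IgG, -0.0284, -0.0667 and -0.0711 for m6A and input, and 0.0661, -0.0273 and 0.0406 for IgG and input. Libraries of a group differed by more than sampling noise (chi-square per degree of freedom 5.44 to 157), so none was counted as a copy.

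All entries listed in a table were named in its comparisons (9 in the knockdown, 8 in RIP-seq, where miR-1260a was not analysed), together with the 2 miRNAs of most similar profile for each of the 8 in both tables and the highest and lowest of the comparison list. The entries and lists were chosen with earlier results of these data known. Alternatives were TMM factors, DESeq2, no filter, a filter at 15 RPM, no block, each clone left out, and totals without miR-6080 (RIP-seq) or miR-10a-5p (knockdown). Tests ran in R 4.3.3 with edgeR 4.0.16 and DESeq2 1.42.0, and summaries in Python 3.11.15 with scipy 1.17.1.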

Additional observations from a re-analysis of the deposited data

How the results depend on the processing

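Of 295 alternative values of the entries, 248 kept their direction and their side of the threshold and 19 changed sign. Of those that kept their sign, 14 were no longer called and 14 became called. Some sign changes also crossed the threshold. For m6A against input, with TMM factors and DESeq2, miR-1290 and miR-3648 were no longer called and miR-1260b became called. The calls of miR-1246, miR-4454 and miR-663a in both contrasts with input, of miR-1246 and miR-4454 for m6A against IgG, and of miR-663b for IgG against input held in all 9 alternatives.

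The sign changes were as follows, in log2 fold change. In the knockdown, miR-4454 became -0.0739 with TMM factors and -0.0777 with DESeq2. For m6A against IgG, miR-3648 became -0.65 with TMM factors, -0.67 with DESeq2, -0.60 with totals without miR-6080, and -0.14 to 0.57 with a clone left out (-0.09 without FTO2D4), and miR-3687 became -0.63, -0.68 and -0.58 with the same 3 scalings and -0.21 to 0.29 with a clone left out, negative without FTO2D4. For m6A against input, TMM factors and DESeq2 gave -0.11 and -0.10 for miR-1290, -1.09 and -1.12 for miR-1260b (adjusted p = 0.0153 and 0.0058), -0.53 and -0.56 for miR-3648, and -0.80 and -0.83 for miR-3687. These scalings move the median of all miRNAs to near 0.

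The number of entries called in the knockdown was 2, and 0 to 3 with a clone left out. The number of all miRNAs called in the knockdown, 130, became 55 with TMM factors, 203 with a filter at 15 RPM and 0 to 201 with a clone left out, with 0 without FTO1C1. Without the replicate block by clone it was 41, and the same 2 entries were called. The block changed the call of an entry in 2 other cases: without it, miR-3687 was called for m6A against input (0.78, adjusted p = 0.0403) and miR-3648 for IgG against input (0.98, adjusted p = 0.0449). For m6A against IgG, 818 miRNAs were called and 470 to 730 with a clone left out, the lowest without FTO2D4. For m6A against input, 1681 became 1086 with DESeq2. The causes of these changes were not tested. miR-1290 in IgG (2 to 5 reads) and miR-3648 and miR-3687 in the FTO3C3 IgG library (7 and 9 reads) limit what these libraries can show.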
